A study of Mus musculus with 3 samples.

Results

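The mouse genes Cd209a, Cd209b, Cd209d, Cd209f, Cd209g, Clec10a and Mgl2 encode C-type lectins of myeloid cells. All 7 were found by symbol among the 32285 genes of the count table, and they were followed through the leukocytes of the aorta together with the antibodies against MGL1, the product of Clec10a, and MGL2, the product of Mgl2. The genes were chosen by their levels in these same cells, several of them being among the transcripts with the largest fold difference between resident macrophage clusters. Their levels across cell classes and clusters are therefore given as a description without a test. The shares of the resident clusters differed between genotypes, as given below. The genotype tests of these genes in resident macrophages are thus not independent of the choice.

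Aortic CD45+ cells of 10 mice were analysed by CITE-seq, in which transcripts and oligonucleotide-tagged antibodies are counted in the same single cells. Each mouse carried its own hashtag antibody, and all cells were pooled in 1 run. Mice 1 to 5 were Jak2WT controls. The other 5 were Jak2V617F Myel mice, which express the activating V617F form of the JAK2 kinase after LysM-Cre recombination, and so in macrophages, monocytes and neutrophils and in part of the dendritic cells. Mice 6, 8 and 10 of these showed aortic dilation and mice 7 and 9 aneurysm. All were C57BL/6, both sexes were used in the colony with littermate controls, and the age of these 10 mice is not given in the sources used here. A CD45.2 antibody injected before death was used to exclude blood leukocytes, and the fluorochrome of the sorting antibody differed between the genotypes, so it cannot be told apart from genotype. The sort was set to give each genotype about the same number of cells, so that cell numbers are not compared.

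C-type lectins bind carbohydrates on microbes and on self glycoproteins. The CD209 proteins are the mouse relatives of human DC-SIGN and mostly recognise mannose- and fucose-rich glycans, while MGL1 and MGL2 bind galactose and N-acetylgalactosamine. Both groups are endocytic receptors. MGL1 and MGL2 are widely used as markers of alternatively activated macrophages, of perivascular and interstitial resident macrophages and of type 2 conventional dendritic cells (cDC2).

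The CD209 genes lie in 1 cluster on chromosome 8 of GRCm38, with Cd209a at chr8:3743397-3748984, Cd209d at chr8:3871824-3878555, Cd209b at chr8:3917655-3926844, Cd209f at chr8:4102787-4105835 and Cd209g at chr8:4134098-4137707. Only Cd209g is on the plus strand. Mgl2 (chr11:70130329-70137550) and Clec10a (chr11:70156197-70170834) are neighbours on the plus strand of chromosome 11. RefSeq promoters of GRCm38.p6, running from 250 bases before to 50 bases after the transcription start, were matched for 6 of the 7 genes, without Clec10a. The promoters of Cd209f and Cd209g, which face opposite strands, are shown because they share an identical run of 180 bases, marked in capitals. It spans positions 97 to 276 of the Cd209f window and 83 to 262 of the Cd209g window, both read 5′ to 3′ on the gene's strand.
Cd209f (chr8:4105715-4106014, minus strand): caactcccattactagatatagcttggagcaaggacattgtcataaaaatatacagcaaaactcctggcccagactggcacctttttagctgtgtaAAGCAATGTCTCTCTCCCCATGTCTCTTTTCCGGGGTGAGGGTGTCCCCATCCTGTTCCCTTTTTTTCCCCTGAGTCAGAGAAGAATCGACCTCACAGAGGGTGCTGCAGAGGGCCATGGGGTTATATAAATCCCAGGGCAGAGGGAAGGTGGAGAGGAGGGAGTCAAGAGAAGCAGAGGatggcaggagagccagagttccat
Cd209g (chr8:4134486-4134785, plus strand): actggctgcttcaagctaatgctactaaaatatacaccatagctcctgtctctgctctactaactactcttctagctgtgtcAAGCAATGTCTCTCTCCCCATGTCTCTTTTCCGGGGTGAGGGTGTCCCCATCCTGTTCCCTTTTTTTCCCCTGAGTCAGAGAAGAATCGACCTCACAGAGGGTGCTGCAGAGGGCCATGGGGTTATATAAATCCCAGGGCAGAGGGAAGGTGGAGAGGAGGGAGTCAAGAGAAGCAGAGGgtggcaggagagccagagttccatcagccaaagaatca

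The promoters of Cd209b and Cd209d are shown beside them because the first of these genes did not pass the genotype test described below and the second did. These genes were not tested against each other, and no link of promoter sequence to genotype was tested. The longest identical run of this pair, in capitals, is 12 bases at positions 22 to 33 of both windows. A run of this length is not particular to the pair, since Cd209a shares 17 bases with Cd209b and 12 with Cd209d, at other positions.
Cd209b (chr8:3926792-3927091, minus strand): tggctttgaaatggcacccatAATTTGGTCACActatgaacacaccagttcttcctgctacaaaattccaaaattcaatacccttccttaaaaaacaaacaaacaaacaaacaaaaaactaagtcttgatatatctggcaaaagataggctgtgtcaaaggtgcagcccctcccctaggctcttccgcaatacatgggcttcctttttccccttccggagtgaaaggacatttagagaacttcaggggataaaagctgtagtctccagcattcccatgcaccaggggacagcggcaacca
Cd209d (chr8:3878450-3878749, minus strand): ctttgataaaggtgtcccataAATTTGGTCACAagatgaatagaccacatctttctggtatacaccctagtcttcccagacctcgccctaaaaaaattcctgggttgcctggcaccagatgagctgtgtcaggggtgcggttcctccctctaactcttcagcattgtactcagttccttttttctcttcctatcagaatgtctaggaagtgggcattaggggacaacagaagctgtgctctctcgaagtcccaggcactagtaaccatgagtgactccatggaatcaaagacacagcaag

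On both strands of the 6 windows, the STAT-type motif TTCNNNGAA and the PU.1-type motif GAGGAAGT were each found in 0 promoters, against 8.3% and 3.2% of all 32851 RefSeq promoters of the same length. The letters TATAAA were found in 3 of the 6, those of Cd209a, Cd209f and Cd209g, against 13.6% of all promoters. In Cd209f and Cd209g they lie within the identical run shown in capitals, so these finds are not independent. All of these counts are descriptions of the letters in the windows and say nothing of binding. Since counting is from the 3′ end of transcripts, windows of 50 bases from the last 500 bases of each gene's longest transcript were looked up in all transcripts of the other genes, at any position. No window of a CD209 gene was found in another of the 7. Of the 451 windows of Clec10a, 92 (20.4%) were found in an Mgl2 transcript, and 0 of the 451 windows of Mgl2 were found in a Clec10a transcript. Reads from the shared stretch could be assigned to either gene or dropped.

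After demultiplexing and filtering, 4871 cells remained, 112 to 811 per mouse, with 1038443 to 9643994 UMIs (unique molecular identifiers, the counted transcripts) per mouse. Among them were 1732 macrophages and 384 cDC2. The macrophages formed 2 Lyve1+ resident clusters, M1 (394 cells) and M3 (233 cells), an immediate-early gene cluster (IEG+, M0), 2 Ccr2+ inflammatory clusters (M2 and M4), an interferon-induced cluster (IFNIC, M5), a monocyte cluster (M6) and an unnamed cluster led by T cell genes (M7). The 2 aneurysm mice stood apart: Ccr2+ inflammatory cells were 65.8% and 49.9% of their macrophages and 0 to 11.9% in the other mice. Jak2 UMIs do not tell the mutant from the wild-type allele, and Jak2 was at 12.9 to 32.7 CPM (UMIs scaled to the total of the class) in resident macrophages with overlapping genotypes, so the recombination could not be checked.

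By pooled level, the CD209 genes fell into a macrophage set and a dendritic cell gene. Cd209a had its highest pooled level in cDC2, at 569.7 CPM, with a mean of 539.1 ± 182.6 CPM (SD, n = 9 mice). Proliferating cells followed at 95.6 CPM and resident cluster M1 at 33.8 CPM, and T cells were at 0.608 CPM. The 9 mice ranged from 239.5 to 827.5 CPM in cDC2, and none of the 10 mice exceeded 65.6 CPM in resident macrophages.

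Pooled over the mice, Cd209b, Cd209d, Cd209f and Cd209g were highest in resident macrophages, with a limit for Cd209d given below. Most cells of M1 came from mutant mice, as given below. Pooled steps between M1 and M3, and the thinned shares, therefore mix cluster with genotype. Cd209f reached 397.5 CPM in M1, 186.1 CPM in M3 and 91.5 CPM in the IEG+ cluster, and was at 4.99 and 5.01 CPM in the Ccr2+ inflammatory clusters, close to the 4.25 CPM of T cells. Cd209g was at 174.5, 72.5 and 42.6 CPM in M1, M3 and the IEG+ cluster and at 1.60 CPM in inflammatory cluster M2. Cd209b showed the smallest step between the resident clusters, 75.7 CPM in M1 and 64.8 CPM in M3, with 29.1 CPM in the IEG+ cluster and 2.44 CPM in cDC2. M1 and M3 were not distinct for Cd209b, since single mice ranged from 0 to 141.4 CPM in M1 and from 0 to 229.6 CPM in M3.

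By pooled level, Cd209d was highest in M1. It stood at 145.9 CPM in M1, 27.6 CPM in M3, 14.8 CPM in the IEG+ cluster and 3.39 CPM in inflammatory cluster M2. It was also present in cDC2 at 37.5 CPM, with an exact 95% Poisson interval of 32.8 to 42.7 that covers counting error only. The pooled order did not hold in the controls. In each control mouse fitted in cDC2, Cd209d was higher there than in resident macrophages, in mouse 2 only just. In every mutant mouse it was lower there. In M1 alone, the order against cDC2 varied between the control mice. The main B cell cluster held 57 Cd209d UMIs, but in 5 of 567 cells. Of these UMIs, 27 were in 2 cells of mouse 6 and 27 in a single cell of mouse 10, and whether these were doublets was not tested. A smaller B cell cluster of 38 cells, with a median of 16734.5 UMIs, was at 38.4 CPM of Cd209d, found in 8 cells. It was also at 102.9 CPM of Cd209f and 325.5 CPM of Mgl2, and whether it held doublets was likewise not tested.

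Clec10a and Mgl2 were shared by resident macrophages and cDC2. Pooled Clec10a was 349.2 CPM in M1, 346.6 CPM in M3 and 345.8 CPM in cDC2, levels that did not differ beyond the spread of the mice, which was 317.1 ± 80.6 CPM (SD, n = 9) in cDC2. It was 193.8 CPM in the IEG+ cluster, 168.6 CPM in the IFNIC cluster, and 129.7 and 38.3 CPM in inflammatory clusters M4 and M2. Mgl2 was highest in M3 at 728.5 CPM, followed by cDC2 at 628.6 CPM, the IFNIC cluster at 569.6 CPM, M1 at 477.1 CPM and the IEG+ cluster at 468.0 CPM, and was at 310.1 and 121.8 CPM in M4 and M2. Both were near 9 CPM in T cells (8.81 and 9.11 CPM), which should lack them.

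Mast cells separated the MGL genes. They held 36 Clec10a UMIs in 19 of 65 cells (143.8 CPM) and 2 Mgl2 UMIs (7.99 CPM). The antibodies followed the same split, with 11.4 MGL1 counts and 0.262 MGL2 counts per mast cell. Single cells were spread widely, since 33.8% of mast cells had 10 or more MGL1 counts and the median was 3. 

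**Figure D1:**
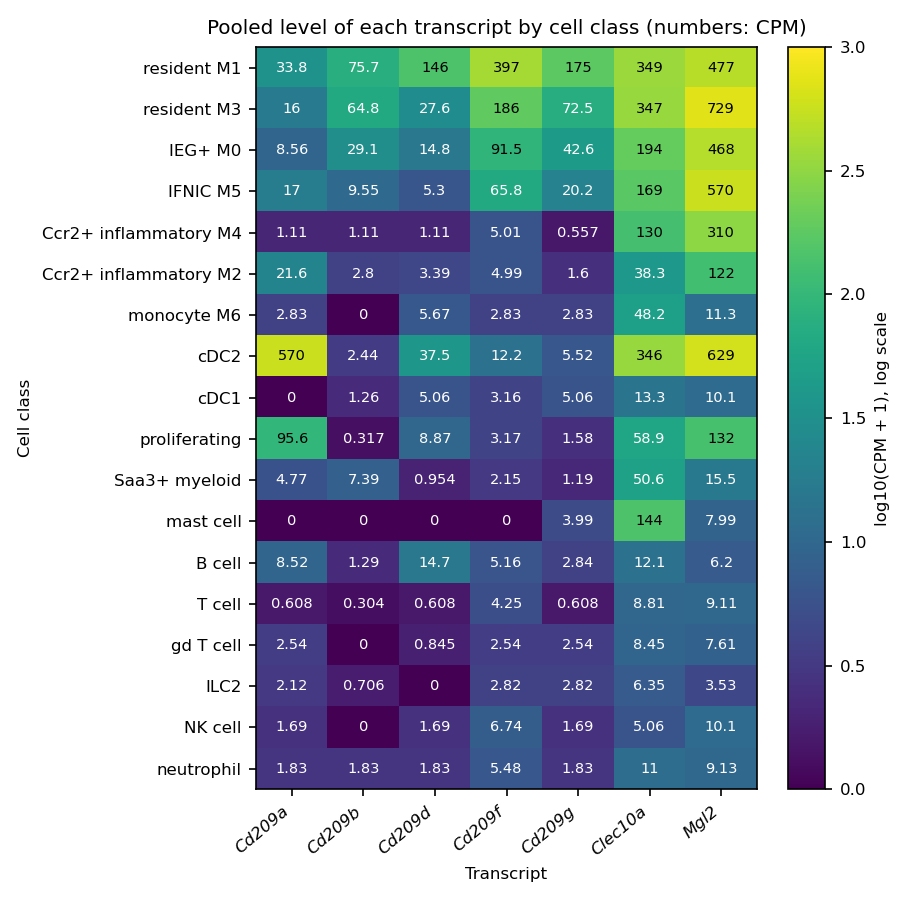
Heat map of the 7 transcripts (columns) in 18 cell classes and macrophage clusters (rows), all mice pooled, coloured by log10(CPM + 1) with the CPM printed in each cell. Cd209a stands out in cDC2 (570), the other CD209 genes are highest in resident cluster M1, and Clec10a and Mgl2 are high in both cDC2 and the resident clusters. The smaller B cell cluster and the low-RNA macrophages are among the classes not drawn.

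To compare shares of positive cells at equal depth, each cell was thinned to 2000 UMIs, and shallower cells were left out (1 of 394 in M1, 0 of 233 in M3, 8 of 384 in cDC2, 10 of 408 T cells). Cd209f was then detected in 25.7% of M1 and 12.9% of M3 cells, against 1.01% of T cells. Cd209d was detected in 11.5% of M1, 3.43% of M3 and 5.05% of cDC2 cells, against 0.251% of T cells. Cd209a was seen in 42.0% of cDC2 and 4.07% of M1 cells, and in 0 of 398 T cells, for which the exact upper limit was 0.923%. Without thinning the Cd209d shares were 21.8% in M1, 8.15% in M3 and 20.8% in cDC2, whose median depths were 12028, 8521 and 15605.5 UMIs, against 0.490% in T cells at a median of 7737.5 UMIs.

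The macrophage CD209 transcripts were often found in the same cells. Among 595 resident macrophages thinned to 5000 UMIs, none of Cd209b, Cd209d, Cd209f and Cd209g was detected in 394 cells (66.2%), 1 of the 4 in 72 cells, 2 in 58, 3 in 40 and all 4 in 31 cells (5.21%). Cells with Cd209f had Cd209g in 66.7% of cases and cells without it in 4.65%, and the share was higher with Cd209f in 9 of 9 mice. Cells with Cd209d had Cd209f in 84.1% and Cd209g in 81.2% of cases, against 20.3% and 14.1% without Cd209d, with the same direction in 5 of 5 mice. Cd209a went the same way, at 13.9% of cells with and 1.86% of cells without Cd209f (higher in 8 of 9 mice). Mgl2 differed little by Cd209f, at 80.6% of cells with and 73.5% of cells without it (higher in 6 of 9 mice). By Cd209b, Mgl2 was at 91.2% and 73.4% (6 of 6 mice), by Cd209d at 88.4% and 73.8% (4 of 5 mice) and by Cd209g at 81.5% and 73.8% (6 of 8 mice). Clec10a was at 78.2% of cells with and 48.6% of cells without Cd209f (higher in 8 of 9 mice). Cells of 1 mouse are not replicates, and these shares are given without a test.

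**Figure D2:**
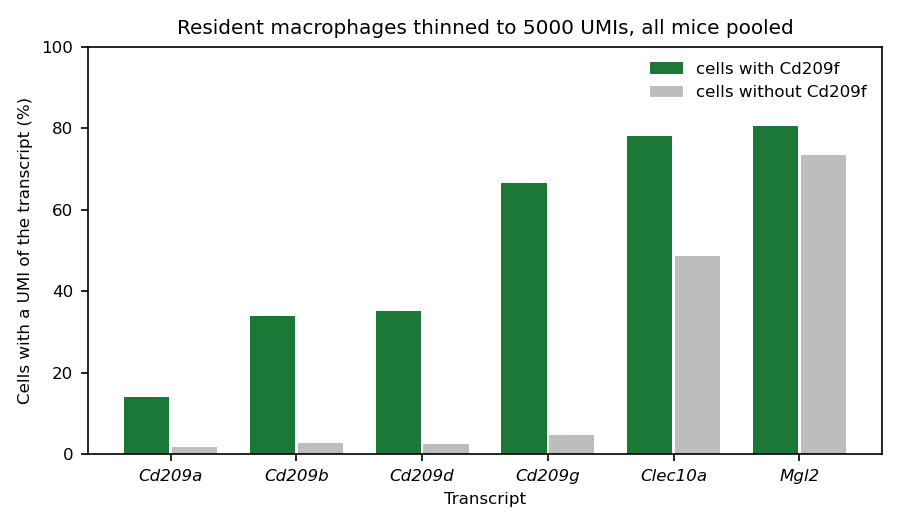
Bars give the percentage of resident macrophages with a UMI of each transcript, in the 165 cells with a Cd209f UMI (green) and the other cells (grey), each cell thinned to 5000 UMIs. Cd209g was in 66.7% against 4.65%, and Mgl2 in 80.6% against 73.5%.

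The surface proteins were next set beside their transcripts. MGL1 averaged 7.59 antibody counts per cell in cDC2, 5.37 in M1 and 4.90 in M3, against 0.891 and 0.954 in the inflammatory clusters and 0.196 in T cells. Pooled over all cells, MGL2 averaged 10.7 counts in cDC2, 2.43 in M1 and 1.37 in M3, against 0.199 in T cells. In cDC2 the mean of 9 mice was 7.51 ± 6.46 counts (SD), and the median cell had 2. In control mice MGL2 was at 1.82 to 2.93 counts in cDC2 and 0.811 to 2.08 in resident macrophages. The mutant mice were at 5.03 to 20.3 and 1.93 to 4.52 counts. The order of unscaled MGL2 counts thus differed from that of Mgl2 RNA, since M3 had the highest RNA level and the lowest MGL2 count of clusters M0 to M5, the IEG+ cluster having 2.96 and the inflammatory clusters 1.96 and 1.76. The isotype controls with counts were at 0.668, 0.525 and 0.147 counts per cell in M1 and lower in M3, at 0.322, 0.236 and 0.0773. The MGL2 counts of macrophages were thus only a few times above them. The part of this background in the order of MGL2 counts over the clusters was not tested. In single cells thinned to 5000 UMIs, MGL1 was 6.99 counts in resident macrophages with a Clec10a UMI and 2.38 without (higher in 10 of 10 mice), and 12.3 against 2.55 in cDC2 (9 of 9 mice). MGL2 was 17.5 counts in cDC2 with an Mgl2 UMI and 2.42 without (7 of 7 mice), but 2.23 against 1.42 in resident macrophages (8 of 9 mice).

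Genotype was compared within classes on UMIs summed per mouse, with edgeR's quasi-likelihood test over all genes and Benjamini-Hochberg adjustment at 0.05. Positive log2 fold changes mean higher in Jak2V617F Myel. Resident macrophages gave the clearest difference, in Cd209d. It was at 27.5, 63.8, 10.0, 20.5 and 37.9 CPM in Jak2WT mice 1 to 5, and at 211.0, 170.0, 163.4, 106.8 and 126.0 CPM in mice 6 to 10. All mutant mice lay above all controls. The means were 31.9 ± 20.5 and 155.4 ± 40.6 CPM (SD, n = 5 each), and the log2 fold change was 2.18 ± 0.27 (SE, edgeR adjusted p = 0.000626). Of 6464 genes tested, 1.67% were called higher, 0.572% lower and 2.24% in either direction, and Cd209d ranked 2 by p. The choice of the genes from these same cells limits what this p and rank show. At 2000 UMIs per cell, Cd209d was detected in 1.89%, 5.41%, 2.78%, 0% and 7.79% of resident macrophages in Jak2WT mice. In mice 6 to 10 the shares were 17.9%, 8.06%, 10.2%, 10.3% and 9.48%. The closest values, 7.79% in mouse 5 and 8.06% in mouse 7, were nearly equal and came from a single random thinning. The share of all genes without overlap was not computed for this measure.

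Cd209d was the only one of the 7 genes called. Cd209a was at 3.66, 19.6, 30.0, 0 and 9.10 CPM in Jak2WT and 50.4, 65.6, 31.5, 21.4 and 27.8 CPM in mutant mice, with overlapping groups and a log2 fold change of 1.69 ± 0.47 (edgeR adjusted p = 0.0706). Cd209b was at 20.2, 93.2, 36.7, 12.3 and 30.4 CPM in controls and 48.8, 72.8, 114.6, 114.5 and 75.0 CPM in mutants (1.17 ± 0.34, edgeR adjusted p = 0.0801). Control mouse 2 lay within the mutant range. Cd209f was at 133.7, 382.8, 163.4, 69.6 and 308.0 CPM against 587.4, 435.8, 427.0, 355.6 and 250.6 CPM (0.92 ± 0.29, edgeR adjusted p = 0.122). Cd209g was at 78.8, 223.3, 63.4, 4.09 and 160.8 CPM against 226.8, 134.8, 225.0, 141.2 and 109.5 CPM (0.54 ± 0.36, edgeR adjusted p = 0.580). For both, control mice 2 and 5 reached into the mutant range.

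Clec10a and Mgl2 had opposite signs. Clec10a was at 219.8, 228.2, 330.1, 266.0 and 309.6 CPM in controls and 381.1, 392.1, 336.7, 338.0 and 450.2 CPM in mutants. The groups did not overlap, which held upwards for 1.92% of all genes tested, but the log2 fold change of 0.51 ± 0.13 did not pass (edgeR adjusted p = 0.0522). Mgl2 was at 758.3, 650.2, 790.3, 920.7 and 470.4 CPM against 505.5, 630.1, 554.5, 384.6 and 492.9 CPM (−0.47 ± 0.16, edgeR adjusted p = 0.158), with control mouse 5 among the mutants.

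**Figure D3:**
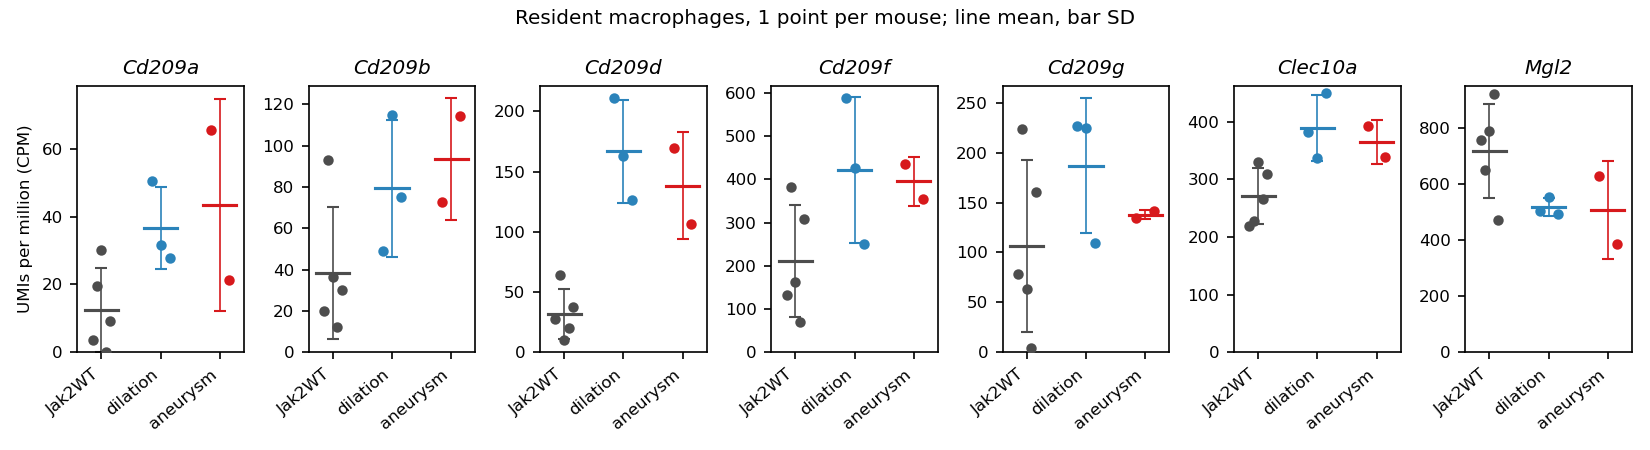
CPM of each transcript in resident macrophages, 1 point per mouse, in Jak2WT (n = 5), dilation (n = 3) and aneurysm (n = 2); lines are means and bars SD. The groups are apart for Cd209d (controls up to 63.8, mutants from 106.8) and narrowly for Clec10a, and overlap for the others.

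The resident class was not made of the same clusters in both genotypes. M1 held 15, 25 and 33 of the 53, 37 and 77 resident cells of control mice 1, 2 and 5 and under 10 cells in mice 3 and 4, against 43, 47, 45, 91 and 81 of the 57, 62, 59, 107 and 116 cells of mice 6 to 10. Cd209d was therefore also fitted within each cluster. In M1 it was at 76.6, 75.6 and 25.2 CPM in control mice 1, 2 and 5 and at 246.5, 194.3, 197.9, 117.9 and 157.4 CPM in mutants, again without overlap (1.69 ± 0.31, edgeR adjusted p = 0.0379, with 0.159% of 6289 genes called higher). With control mice 3 and 4 left out, a lack of overlap is more easily reached, and its share over all genes in M1 was not computed. Clec10a (0.53 ± 0.15, edgeR adjusted p = 0.216) and Mgl2 (0.08 ± 0.20, edgeR adjusted p = 0.958) did not pass within M1. Cd209a (2.06 ± 0.65, edgeR adjusted p = 0.247) and Cd209b (0.84 ± 0.51, edgeR adjusted p = 0.672) did not pass there either. The same held for Cd209f (0.45 ± 0.24, edgeR adjusted p = 0.614) and for Cd209g, whose sign was reversed (−0.13 ± 0.26, edgeR adjusted p = 0.936). M1 was itself not uniform, since 224 to 234 of its 394 cells were named IEG+ under other settings given below. Whether its make-up differed between genotypes was not tested, so make-up and level cannot be told apart within M1. In M3 Cd209d was too low to be tested, at 23.0 ± 17.9 CPM in controls and 35.8 ± 18.2 CPM in mutants (SD, n = 5 each) from 1 to 17 UMIs per mouse, and 0 of the 5 members tested there were called by edgeR, against 0.0429% of 2333 genes. In the IEG+ cluster, where Cd209d was at 0 to 20.2 CPM in controls and 5.35 to 44.0 CPM in mutants and likewise too low to be tested, 0 of the 5 members tested were called by edgeR, against 0.101% of 4953 genes.

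Markers of cDC2 and lymphocytes were low in resident macrophages. The cDC2 marker list summed to 12.3 to 51.3 CPM in controls, 26.3 to 37.3 CPM in dilation and 21.4 to 35.2 CPM in aneurysm, with Itgax and Ffar2 at 0 in controls and Cd7 and Ffar2 at 0 in both mutant groups. The B cell list summed to at most 44.4 CPM and the T cell list to at most 27.3 CPM in any mouse. The list of Saa3+ myeloid cells was more variable, at 23.3 to 221.5 CPM in controls, 40.5 to 241.0 CPM in dilation and 38.9 to 53.4 CPM in aneurysm, and its part in the member values was not tested. The 8 general macrophage markers summed to 19188 to 21858 CPM in controls and 18067 to 21508 CPM in mutants. Immediate-early genes did move with genotype: 4 of the 5 on the IEG+ list were called higher, and the list summed to 8033 to 13653 CPM in controls, 13025 to 17082 CPM in dilation and 14578 to 17040 CPM in aneurysm. Their part in the Cd209d difference was not tested. The call was lost under 3 settings in which most M1 cells were named IEG+ and left the resident class, namely MULTIseqDemux assignment (1.30, edgeR adjusted p = 0.222), a mitochondrial limit of 5% (1.63, edgeR adjusted p = 0.0884) and a clustering resolution of 1.2 (1.65, edgeR adjusted p = 0.0779), and was present in all 3 when the IEG+ clusters were added back (1.84 to 2.33, edgeR adjusted p = 0.000294 to 0.00643).

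Over all macrophages, none of the 7 genes was called, nor was any of 8167 genes (0%), with 972 at an unadjusted p under 0.05 and 45 of 6207 called by DESeq2, of which 1 was among the 7. Cd209d was at 5.82 to 27.3 CPM in controls and 31.8 to 118.1 CPM in mutants, without overlap, which held upwards for 0.551% of genes (1.92 ± 0.42, edgeR adjusted p = 0.171). Without the Ccr2+ inflammatory clusters the same comparison gave 2.25 ± 0.27 (edgeR adjusted p = 0.00273, with 0.213% called higher).

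Disease stage was compared in a fit with 3 groups, in which both mutant groups share the Jak2WT mice. Among all macrophages, Cd209d was higher in dilation than in Jak2WT (2.35 ± 0.28, edgeR adjusted p = 0.0077), 1 of 2 genes called in 9017 (0.0222%). In aneurysm Cd209d was at 31.8 and 34.4 CPM, against 63.3 to 118.1 CPM in dilation, and lower than there by 1.35 ± 0.29 on the log2 scale (edgeR adjusted p = 0.00782). Clec10a fell likewise, from 247.8 to 293.3 CPM in dilation to 126.9 and 176.7 CPM in aneurysm (−0.79 ± 0.20, edgeR adjusted p = 0.0222), where 4% of genes were called lower. Against Jak2WT, aneurysm had more Cd209a (1.51 ± 0.41, edgeR adjusted p = 0.0272, with 7.29% called higher) and less Mgl2 (−1.03 ± 0.26, edgeR adjusted p = 0.0187, with 5.33% called lower). The Cd209a difference was of similar size in dilation against Jak2WT, though not called (1.42 ± 0.42, edgeR adjusted p = 0.368). Between aneurysm and dilation neither Cd209a (0.09 ± 0.37, edgeR adjusted p = 0.922) nor Mgl2 (−0.79 ± 0.28, edgeR adjusted p = 0.0913) was called. Ccr2+ inflammatory cells were 65.8% and 49.9% of macrophages in aneurysm, 2.44% to 8.66% in dilation and 0 to 11.9% in Jak2WT, and the part of that share in the aneurysm differences was not tested.

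Within resident macrophages the aneurysm mice did not stand apart. Cd209d was higher than in Jak2WT in dilation (2.29 ± 0.29, edgeR adjusted p = 0.00154, with 0.386% called higher) and in aneurysm (2.02 ± 0.32, edgeR adjusted p = 0.00177, with 1.73% called higher). Between aneurysm and dilation it differed by −0.27 ± 0.29, and 0 of the 7 genes was called by edgeR against 0.0266% of 7512 genes, of which 316 had an unadjusted p under 0.05.

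In cDC2, mouse 3 was left out with 7 cells. Cd209a, whose pooled level was higher in cDC2 than in any other class, was at 511.4, 499.2, 330.9 and 662.6 CPM in control mice 1, 2, 4 and 5 and at 827.5, 679.7, 239.5, 630.7 and 470.2 CPM in mutants, with full overlap (0.13 ± 0.32, edgeR adjusted p = 0.955). Mgl2 was at 543.9, 407.5, 330.9 and 261.0 CPM in controls and 714.5, 816.4, 534.0, 591.5 and 627.3 CPM in mutants, with control mouse 1 just inside the mutant range, and its rise of 0.74 ± 0.20 did not pass (edgeR adjusted p = 0.296). Clec10a (0.29 ± 0.24, edgeR adjusted p = 0.818) and Cd209d did not pass either. Cd209d was at 52.8, 64.5, 79.9 and 50.2 CPM in controls and at 134.0, 21.8, 30.7, 14.9 and 49.1 CPM in mutants (−0.56 ± 0.58, edgeR adjusted p = 0.847). None of the 4 tested members was called, against 0.0473% of 4229 genes (2 genes, with 337 at an unadjusted p under 0.05 and 20 of 4398 called by DESeq2). Cd209b, Cd209f and Cd209g were too low to be tested. Cd209f was at 0 in all 4 controls and at 2.13 to 47.3 CPM in mutants.

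In the cDC2 class, macrophage markers had higher means in mutants, but no marker on the 2 lists was called. The 8 macrophage markers summed to 456 to 1797 CPM in controls, 2246 to 4724 CPM in dilation and 2291 to 3408 CPM in aneurysm, and all 8 had a higher mean in mutants, though 0 of the 6 tested were called by edgeR. The 8 resident macrophage markers overlapped, at 495 to 1197 CPM in controls, 993 to 1922 CPM in dilation and 939 to 979 CPM in aneurysm. All 8 had a higher mean in mutants and 0 of the 6 tested were called by edgeR. The 7 cDC2 markers summed to 321 to 468 CPM in controls, 194 to 355 CPM in dilation and 453 to 478 CPM in aneurysm, and 0 of the 4 tested were called by edgeR. Pf4, a chemokine gene of resident macrophages, was called higher (55.4 to 403.0 CPM, 2.81 ± 0.23, edgeR adjusted p = 7.2e-05). The part of these macrophage transcripts, or of the make-up of the class, in the Mgl2 and Cd209f values and in the MGL2 antibody values below was not tested.

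The genotype effect on Cd209d differed between resident macrophages and cDC2. With the mouse as a block in 9 mice, the effect was greater in resident macrophages by 2.68 ± 0.51 on the log2 scale (edgeR adjusted p = 0.0491), 1 of 8 genes called in 7194 (0.111%). This call lies at the threshold and was present in 4 of 17 alternatives, with adjusted p up to 0.472. Mgl2 had the opposite sign, −1.17 ± 0.24, and narrowly did not pass (edgeR adjusted p = 0.0549), nor did Cd209a (2.12 ± 0.50, edgeR adjusted p = 0.121) or Clec10a (0.24 ± 0.26, edgeR adjusted p = 0.888). Cd209b (0.81 ± 1.61, edgeR adjusted p = 0.962), Cd209f (−5.91 ± 2.13, edgeR adjusted p = 0.457) and Cd209g (−2.23 ± 1.35, edgeR adjusted p = 0.773) did not pass either. These 3 genes were too low to be tested in cDC2 alone. Alternatives called Mgl2 in 5 of 18, Cd209a in 2 of 18 and Cd209f in 1 of 18.

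**Figure D4:**
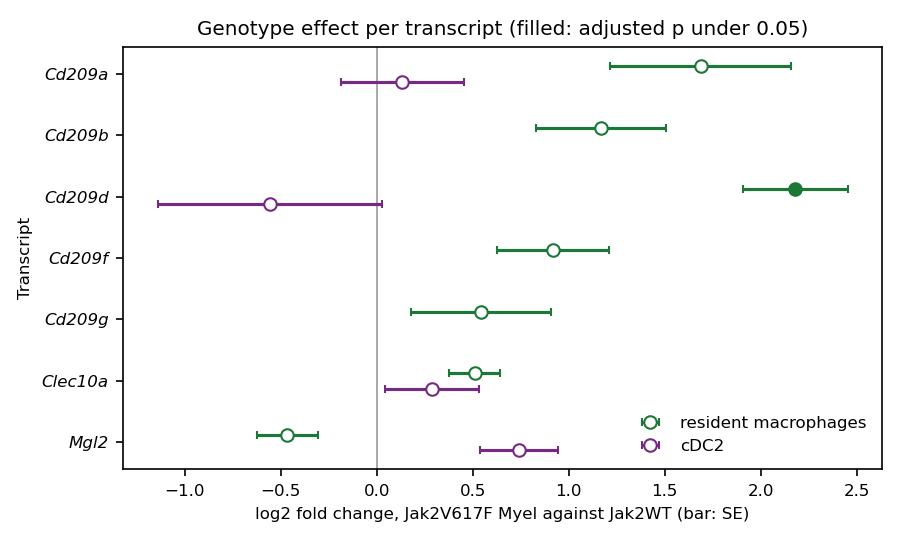
Log2 fold change of each transcript, Jak2V617F Myel against Jak2WT, with SE bars, in resident macrophages (green) and cDC2 (purple); filled points passed the adjusted threshold, and Cd209b, Cd209f and Cd209g were not tested in cDC2. Only Cd209d in resident macrophages is filled, and Mgl2 lies below 0 in resident macrophages and above 0 in cDC2.

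On the cell surface, MGL2 in cDC2 was the only MGL signal called by genotype. It was at 2.93, 2.80, 1.82 and 2.32 antibody counts per cell in controls and at 13.2, 20.3, 5.03, 6.34 and 12.9 in mutants, without overlap. Over the 73 antibodies with counts, the log2 fold change was 1.74 ± 0.40 (edgeR adjusted p = 0.0286). MGL2 was the only antibody called higher (1.37%), and CD9 and CD24 were called lower. The MGL2 call was lost in 10 of 14 alternatives, among them leaving out control mouse 1, 2, 4 or 5 or mutant mouse 6, 7, 9 or 10 (1.49 to 1.86, edgeR adjusted p = 0.0641 to 0.126). The share of cDC2 with 10 or more MGL2 counts was 0 to 10.0% in the 4 controls tested and 17.6% to 39.3% in the mutants, but 28.6% of the 7 cells of control mouse 3, which was left out of the fit. The median cell had 0 or 1 MGL2 count in all controls, 1 in mutant mouse 9 and 2.5 to 6 in the other mutants. MGL1 in cDC2 was at 2.40 to 5.18 counts in controls and 5.73 to 12.5 counts in mutants. It did not overlap either, but did not pass (0.60 ± 0.33, edgeR adjusted p = 0.480). The share of all antibodies without overlap was not computed.

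In resident macrophages neither antibody was called, nor any other of the 73 (0%), by edgeR, with 13 at an unadjusted p under 0.05. MGL1 was at 2.58, 2.81, 5.97, 3.57 and 6.58 counts per cell in controls and 6.96, 4.81, 5.63, 4.61 and 5.97 in mutants. The mean per cell was higher in mutants (5.59 ± 0.95 against 4.30 ± 1.85, SD, n = 5 each), while the fit scaled to all antibodies gave −0.30 ± 0.32 (edgeR adjusted p = 0.664), so the sign depended on the scale. The mean count per cell of the 3 isotype controls with counts was also higher in mutants, for Rat IgG1 at 0.512 against 0.286. The hamster control was at 0.0556 to 0.434 counts in controls and 0.466 to 1.00 in mutants, without overlap, and the fit gave 0.76 ± 0.37 (edgeR adjusted p = 0.281), while Rat IgG2b, at 0.0501 against 0.171 counts, gave 1.23 ± 0.52 (edgeR adjusted p = 0.264). The part of this background in the MGL counts per cell was not tested. MGL2 was at 0.811 to 2.08 counts in controls and 1.93 to 4.52 counts in mutants (0.16 ± 0.27, edgeR adjusted p = 0.745). Across all macrophages the values were −0.24 ± 0.30 for MGL1 and 0.17 ± 0.24 for MGL2 (edgeR adjusted p = 0.692 for both), and 0 of 73 antibodies were called by edgeR, with 6 at an unadjusted p under 0.05.

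**Figure D5:**
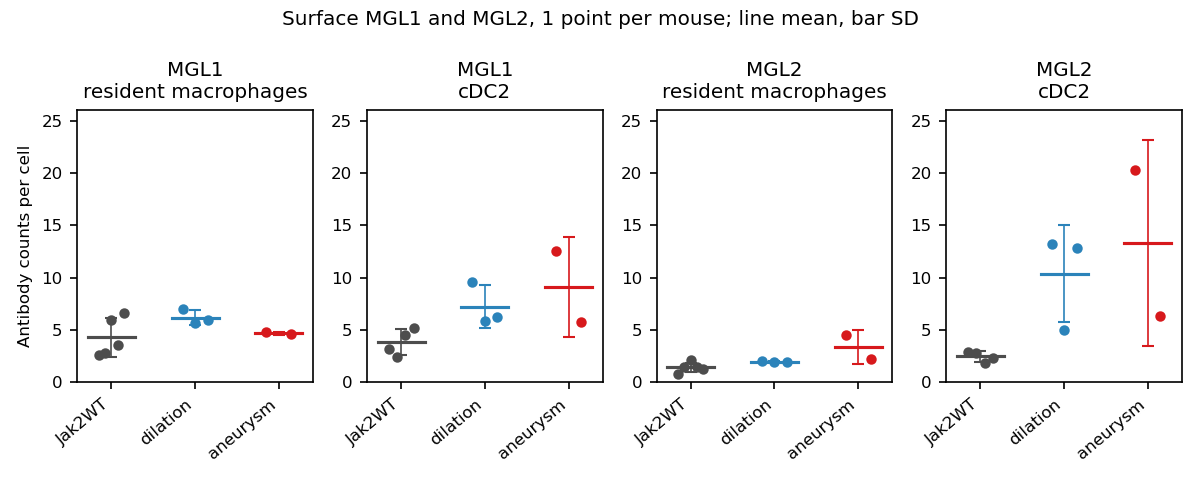
Antibody counts per cell of MGL1 and MGL2 in resident macrophages and cDC2, 1 point per mouse by group; lines are means and bars SD. MGL2 in cDC2 was 1.82 to 2.93 in Jak2WT and 5.03 to 20.3 in mutant mice, while both antibodies overlapped between genotypes in resident macrophages.

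Over the 10 mice, Clec10a CPM and MGL1 counts per resident macrophage were related with Pearson's r = 0.83 (permutation p = 0.00373) and Spearman's rho = 0.56 (permutation p = 0.0949), two-sided, as the only relation computed of its kind. Without mice 1 and 2, the farthest from the median, r was 0.49 (permutation p = 0.216), so the relation rests on those mice. Clec10a did not overlap between the genotypes, and within them r was 0.97 in Jak2WT and 0.35 in Jak2V617F Myel mice, 5 mice each and too few to test. Scaled to the isotype controls, r was near 0 over all 10 mice, but 0.90 within Jak2WT and 0.56 within Jak2V617F Myel mice.

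Genes related to the 7 were described by lists in resident macrophages, where the median log2 fold change of all genes was −0.02. The counts below stand beside 1.67% of all 6464 genes called higher and 0.572% called lower, and with so few members tested nothing is read from them. Of the Dectin-1 and Dectin-2 family, 3 of 8 genes were tested and 1 fell, Clec12a, an inhibitory receptor (−0.86 ± 0.17, edgeR adjusted p = 0.0104), with a list median of −0.33. Of 10 genes of C-type lectin signaling, 9 were tested and 1 fell, Ptpn6, which encodes the phosphatase SHP-1 (−0.54 ± 0.13, edgeR adjusted p = 0.0359), with a median of −0.12. Of the 11 resident macrophage genes 1 rose, Vsig4, a complement receptor gene (43.1 to 111.8 CPM, 1.28 ± 0.27, edgeR adjusted p = 0.0185), with a median of 0.04. None passed among 4 genes of the DCIR family (median −0.19), 2 tested of the mannose receptor family (0.13), 5 tested other myeloid C-type lectins (−0.18) and 7 tested of 15 genes of alternative activation by IL-4 and STAT6 (−0.11). Cd209c and Cd209e, the other CD209 genes listed, were too low to be tested. In macrophages as a whole no list member was called, and in cDC2 Pf4 alone was, in both cases by edgeR.

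Likeness of pattern was measured as Pearson's r of log2(CPM + 1), as a description over points that share depth and origin. Over 18 cell classes and 6595 genes, Cd209b and Cd209f were among each other's nearest 5 genes (r = 0.86). The nearest to Cd209a was Ptpa (r = 0.80), followed by Retnla (0.79), a gene of alternatively activated myeloid cells. Cd209f was nearest to Pla2g2d (0.90), Cd209g to Tslp (0.84), with Lyve1 (0.81) and Folr2 (0.78) among its nearest 5, Cd209b to Gm4951 (0.89) and Cd209d to March1 (0.80). Mgl2 was nearest to Fcrls (0.95), with the mannose receptor gene Mrc1 (0.90) among its nearest 5, and Clec10a to the chemokine gene Ccl2 (0.89). Over the 10 mice in resident macrophages and 2955 genes, Cd209d was nearest to Hmox1, the heme oxygenase gene (r = 0.99), Cd209g to the scavenger lectin gene Colec12 (0.97), Cd209b to Lilrb4a (0.97) and Cd209f to Smc6 (0.93). Cd209d did not overlap between the genotypes in this class, and no r of these pairs was computed within a genotype. Likeness over the mice therefore cannot be told apart from a shared genotype difference.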

How the data were processed

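Transcripts, 75 antibodies and 10 hashtags were measured by CITE-seq in 1 run. The authors deposited whole-number UMI counts per cell barcode, made with Cell Ranger on mm10 (the submitters' processing notes also name Seurat 3.0.0). Of 8471 barcodes, HTODemux (Seurat 5.3.0, quantile 0.99) gave 5857 singlets; 2265 multiplets and 349 negative barcodes were left out, as were 986 cells over 10% mitochondrial UMIs. No further doublet caller was run. Cells were clustered on 2000 variable genes without the 7 lectin genes, 20 components and 20 neighbors, at a resolution of 0.3 (all cells) and 0.8 (macrophages), after 388 macrophages in clusters with a median under 3190 UMIs were removed. Names came from marker scores; an IEG+ name also needed a resident score above the inflammatory one, a rule settled after the clusters were seen.

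Mice were told apart by the hashtags in the labels' protocol. UMIs were summed per mouse and class (at least 10 cells) and tested with edgeR 4.0.16 (quasi-likelihood, filterByExpr, TMM, two-sided, Benjamini-Hochberg over all genes or antibodies, 0.05) in R 4.3.3; SE is the fold change over the root of F. DESeq2 1.42.0 was an alternative. Correlations used 100000 permutations. The fits were tested on simulated data. Levels are CPM of counts from the 3′ end and are not compared between genes; intervals cover counting error only. In these sums, fewer expressing cells and less RNA per cell cannot be told apart. Named genes were the 7 members, up to 4 called genes per related list, and each member's nearest 5 genes by correlation, of which the nearest and a few known ones are printed. The members and lists were chosen with earlier results of these data known.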

Additional observations from a re-analysis of the deposited data

Results flagged for a closer look

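Dixon's test was applied to 54 groups of 4 to 10 mice, of which chance flags about 1 in 20, and 5 groups passed its limit. In cDC2 of Jak2WT mice, mouse 1 had 8.12 CPM of Cd209b from 2 UMIs and mouse 2 had 3.40 CPM of Cd209g from 1 UMI. The other 3 controls were at 0, where any value above 0 passes, so these entries do not set the mice apart. In cDC2 of Jak2V617F Myel mice, mouse 6 had 134.0 CPM of Cd209d against 14.9 to 49.1 CPM in the others. In all macrophages of Jak2WT mice, mouse 2 had 66.3 CPM of Cd209b against 8.22 to 23.3 CPM. In resident macrophages of Jak2V617F Myel mice, mouse 7 had 4.52 MGL2 antibody counts per cell against 1.93 to 2.21. The genotype effect on Cd209d also differed between resident macrophages and cDC2, by 2.68 on the log2 scale in a fit with the mouse as a block (edgeR adjusted p = 0.0491).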

How the results depend on the processing

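The count of the 7 genes called is given under each alternative that moved it by over 1.5 times. The cause was not tested unless stated. Where no share of all genes called is given here or above, a count is not read as particular to the 7 genes. In all macrophages the count of 0 became 1 with DESeq2, 1 with no filter on low counts, 2 with 3 groups in the fit and 1 without the Ccr2+ inflammatory clusters, the last chosen after seeing the data. In resident macrophages the count of 1 became 3 with DESeq2 (with Cd209a and Clec10a), which called 185 of 7818 genes there. It became 7 with no filter, for which no share of all genes is given, and 2 with the members among the variable genes. It became 0 with MULTIseqDemux, a mitochondrial limit of 5%, a resolution of 1.2 or cluster M3 alone. Leaving out 1 mouse gave 1 to 3. Cd209d itself passed in 23 of 26 alternatives there, 4 of which were chosen after seeing the data, and its log2 fold change ranged from 1.30 to 2.51. The resident class was not the same in all of them. With the low-RNA clusters kept and at a resolution of 0.5, 229 and 231 of the 233 M3 cells were named IFNIC and so left it. In cDC2 the count of 0 became 2 with no filter. For the difference between classes the count of 1 became 2 with DESeq2, 4 with no filter and 0 with a mitochondrial limit of 5%, the members among the variable genes, a resolution of 0.5 or the IEG+ clusters added; leaving out 1 mouse gave 0 to 1. For the cDC2 antibodies the count of 1 became 0 with isotype scaling and with MULTIseqDemux, and leaving out 1 mouse gave 0 to 1. The Clec10a and MGL1 correlation fell to 0.493 without mice 1 and 2. With isotype scaling it fell to −0.000633 over all mice, with 0.90 within Jak2WT and 0.56 within Jak2V617F Myel mice. No fold change of a single gene or antibody that passed its test changed sign. Cd209b, Cd209f and Cd209g in cDC2 and Cd209d in M3 were too low to test.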
